A study of Mus musculus with 16 samples.

Results

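The Kruppel-like factors described here are 10 genes of the mouse Klf family, chosen by name: Klf2, Klf3, Klf4, Klf5, Klf6, Klf7, Klf9, Klf10, Klf13 and Klf15. They are 10 of the 17 Klf genes of the annotation and 10 of the 54123 genes to which transcript counts were summed, and all 10 passed the filter on low counts that left 15289 genes for testing. RNA was read from 16 libraries of colon organoids, which are epithelial cultures grown from crypts in a gel. The organoids came from proximal or distal colon, carried scramble-sgRNA (the control guide) or Cdx2-sgRNA, and spent the last 3 days in WENR-minus or WENR-plus medium, which gives 8 groups of 2 libraries. WENR-plus medium holds Wnt3a, EGF, Noggin and R-spondin 1, and WENR-minus medium lacks all of them, so a difference between media cannot be assigned to a single factor.

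On GRCm38 the members lie on 10 chromosomes, among them Klf4 at chr4:55527143-55532466 (minus strand), Klf5 at chr14:99298691-99315036 (plus strand), Klf3 at chr5:64803388-64832901 (plus strand) and Klf13 at chr7:63886351-63938915 (minus strand).

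All 8 groups share a donor background. The mice were females 8 weeks of age with a heterozygous Cre-inducible BrafV600E allele and a heterozygous tdTomato reporter, and the labels give no Cre treatment for these libraries. The guides were delivered with Cas9 by lentivirus under drug selection, and the organoids were in month 4 of culture, with 2 days in WENR-plus medium before the 3 days in the final medium. Cdx2-sgRNA organoids were grown from single clones with a Cdx2 frameshift, a step not described for scramble-sgRNA, so a guide difference and that step cannot be told apart. The replicate number is that of the biological replicate in the labels, and the organoids came from 2 mice. Whether a number marks the same mouse in every region and guide is not stated.

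Total counts ranged from 12465194 to 18922143 per library (median 16836530). The 7 markers of colon epithelium summed to 12000 to 20700 CPM (counts scaled to a common library size) in the WENR-minus libraries and 3930 to 5670 CPM in the WENR-plus libraries, with all 7 detected, while 4 immune markers summed to 0.116 to 7.91 CPM, 4 endothelial markers to 0 to 2.00 CPM and 6 fibroblast and muscle markers to 0.108 to 1.24 CPM. Cdh17, a cadherin of the intestinal epithelium, stood at 10 to 16.2 CPM in the 4 proximal Cdx2-sgRNA libraries and at 445 to 3110 CPM in the other 12 libraries. Of the 7 epithelial markers in proximal organoids, Cdx2-sgRNA went with 4 called lower and 1 higher in WENR-minus medium and 2 lower and 1 higher in WENR-plus medium, Krt19 being the higher one in both. Cdx2 RNA itself was at 127 to 203 CPM in proximal scramble-sgRNA libraries and 29.9 to 73.9 CPM in proximal Cdx2-sgRNA libraries. In distal organoids it was at 67.9 to 112 CPM with scramble-sgRNA and 50.2 to 126 CPM with Cdx2-sgRNA, which overlap, and RNA with a frameshift is still counted, so the level of this RNA does not check the distal labels.

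Kruppel-like factors are transcription factors whose zinc fingers, at the C-terminal end, bind GC-rich and CACCC-type sites. Their N-terminal parts differ and recruit either activating or repressing partners. In the intestine Klf4 is known for its high level in differentiated and goblet cells and for holding back division, and Klf5 for its level in dividing crypt cells, so the pair is often described as acting in opposite directions. Klf3 is known as a repressor that works with CtBP proteins, Klf9 and Klf13 are known to bind Sin3A, and Klf10 is known as an early target of TGF-beta.

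Promoter sequences are given for the members whose differences are described most fully and whose window lies wholly before the annotated gene. In the RefSeq table of GRCm38.p6, 8 of the 10 members had an entry, and Klf5 and Klf10 did not. Each run is the 250 bases before the start, read 5′ to 3′ on the strand of the gene, with CACCC (a core of Klf sites) and TTTAT (a core of Cdx sites) in capitals, or their reverse complements GGGTG and ATAAA. Klf4 lies on the minus strand (window chr4:55532476-55532725) and holds 1 TTTAT and no CACCC. Klf13 also lies on the minus strand (window chr7:63938916-63939165) and holds 1 CACCC and 1 TTTAT. Klf9 lies on the plus strand (window chr19:23140976-23141225) and holds 1 CACCC.
Klf4: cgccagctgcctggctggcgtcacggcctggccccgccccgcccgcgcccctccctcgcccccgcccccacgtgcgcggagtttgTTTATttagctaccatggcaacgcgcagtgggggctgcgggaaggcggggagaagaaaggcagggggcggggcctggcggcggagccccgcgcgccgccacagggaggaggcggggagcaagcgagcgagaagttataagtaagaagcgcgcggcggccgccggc
Klf13: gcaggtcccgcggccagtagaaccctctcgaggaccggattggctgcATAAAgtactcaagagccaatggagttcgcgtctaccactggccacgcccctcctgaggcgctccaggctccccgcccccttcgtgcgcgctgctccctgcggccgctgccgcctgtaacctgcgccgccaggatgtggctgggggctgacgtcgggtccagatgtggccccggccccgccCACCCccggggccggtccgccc
Klf9: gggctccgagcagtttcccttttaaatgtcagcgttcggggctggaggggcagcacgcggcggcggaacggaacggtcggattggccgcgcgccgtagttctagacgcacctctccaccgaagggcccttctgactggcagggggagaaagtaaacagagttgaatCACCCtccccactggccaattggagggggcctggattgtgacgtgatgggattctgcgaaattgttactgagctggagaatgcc

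Over the 8 matched members, CACCC was found in 6, against 52.0% of 32851 promoters of the same length. TTTAT was found in 3 of the 8, against 37.3% of promoters. CTTTGA, a core of Tcf sites, was in 0 of the 8 and in 13.8% of promoters. The windows of the members were 59.2 to 78.4% G and C, against a median of 52.4% over all promoters. Each motif was searched on both strands. A match is a description of these letters and not of a bound site.

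Levels between members were compared as TPM, Salmon's measure of transcripts per library after division by transcript length. Klf5 ranked first of the 10 in 5 of the 8 groups, with mean levels of 83.2 to 235 TPM. Klf4 ranked first in the other 3, all in WENR-minus medium, where distal Cdx2-sgRNA organoids reached 575 TPM. Klf3, Klf4, Klf5 and Klf6 held the first 4 ranks in every group. Klf9, Klf10 and Klf13 followed at group means of 10.1 to 50.8 TPM. Klf7 stayed at 3.29 to 6.62 TPM, Klf2 at 0.331 to 4.86 TPM and Klf15 at 0 to 1.53 TPM.

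**Figure D1:**
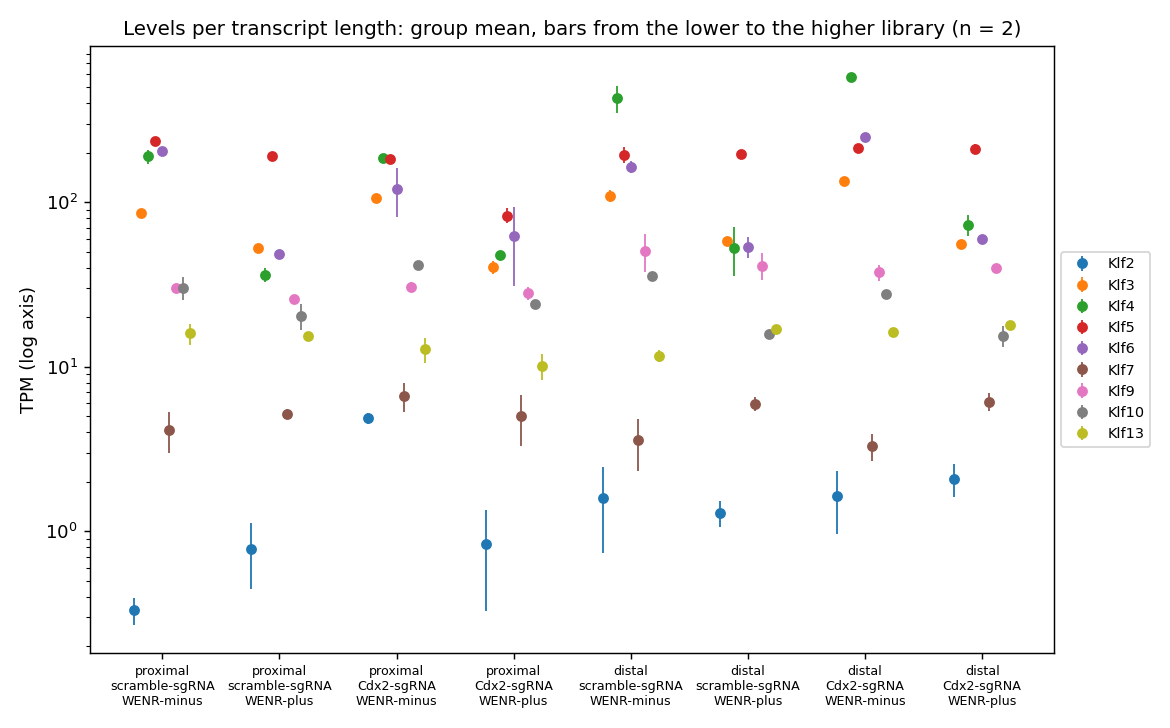
Level of 9 members in TPM (log axis) in each of the 8 groups, with points at the mean of 2 libraries and bars from the lower to the higher library; Klf15, listed at 0 in 3 groups, is left out. Klf3, Klf4, Klf5 and Klf6 lie above the rest in every group, and Klf4 reaches 575 TPM in the distal Cdx2-sgRNA WENR-minus group.

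A single transcript carried most reads of each abundant member: Klf4-201 held 100% of the Klf4 reads, Klf5-201 98.1%, Klf13-201 98.9% and Klf3-201 88.1%. The share of Klf3-201 ran from 79.5 to 93.5% over the libraries, with Klf3-203, a retained intron, at 2.4 to 12%. The spread of the members over the libraries was uneven. The highest library stood 25.8-fold above the lowest for Klf4 and 11.3-fold for Klf6, but 2.42-fold for Klf7 and 2.73-fold for Klf13, in CPM.

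**Figure D2:**
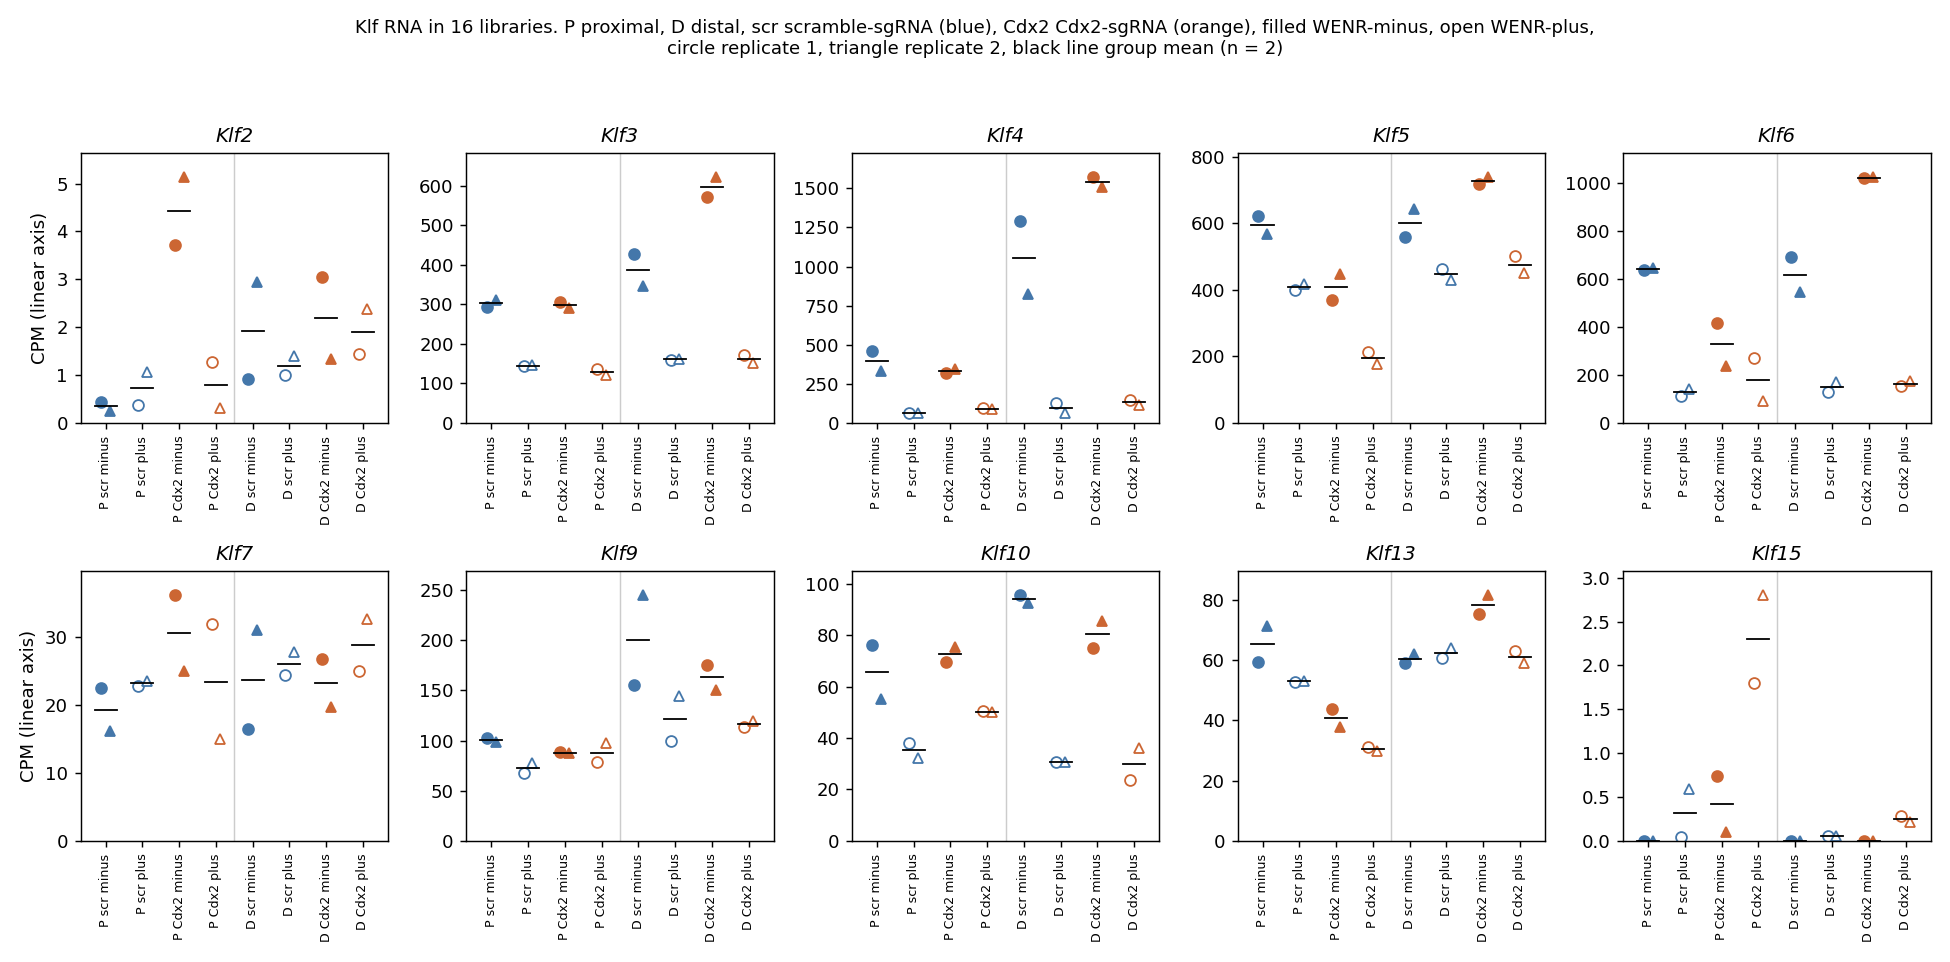
CPM (linear axes from 0) of each member in the 16 libraries, by group, with circles for replicate 1, triangles for replicate 2, filled symbols for WENR-minus, open symbols for WENR-plus and a line at the group mean. Klf4 runs from 60.9 to 1570 CPM, with all WENR-minus libraries above all WENR-plus libraries.

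The first comparison asks what the growth factors did to the family. WENR-plus medium went with lower Klf3 and Klf4 RNA in all 4 cultures (region and guide) and with lower Klf6 in 3 of the 4. With TMM, the scaling used throughout, Klf5 was also lower in all 4, Klf10 in 3 and Klf9 and Klf13 in 1 culture each, but scaling by total counts ended these calls for Klf5 in 3 cultures, for Klf10 in 1 and for Klf9 and Klf13, and turned the sign of Klf5 in both distal cultures and of Klf13. No member was called higher in any culture with TMM. A gene is said to rise or fall where its adjusted p, from edgeR's quasi-likelihood test with Benjamini-Hochberg adjustment over all 15289 genes, is under 0.05, and log2 fold changes are given with their SE. The 4 comparisons use separate libraries, while the guide and region comparisons further on reuse the same libraries.

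In proximal scramble-sgRNA organoids, 5 of the 10 members fell, where 29.4% of all tested genes were called and 16.4% were called lower. In proximal Cdx2-sgRNA organoids 3 of the 10 fell, against 13.5% called and 8.33% called lower. In distal scramble-sgRNA organoids 6 of the 10 fell, against 40.4% called and 20.3% called lower. In distal Cdx2-sgRNA organoids 6 of the 10 fell, against 47.0% called and 23.0% called lower. The median log2 fold change of the members was -0.51, -0.70, -0.70 and -0.55 in this order, and that of all tested genes 0.06, 0.03, 0.11 and 0.10. The proximal Cdx2-sgRNA count rests on the spread shared with the other groups: fitted on its own 4 libraries, no member passed (adjusted p of 0.128 to 0.142 for Klf3, Klf4 and Klf5), and with a block for each culture 7 did.

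The scaling between libraries bears on the smaller of these differences. The TMM factors ran from 0.656 to 0.804 in the 4 distal WENR-minus libraries and from 0.964 to 1.31 in the other 12. Scaling by total counts of the tested genes in place of TMM, an alternative chosen after seeing the data, moved the median log2 fold change of all genes between media by 0.34 in proximal scramble-sgRNA, 0.03 in proximal Cdx2-sgRNA, 0.50 in distal scramble-sgRNA and 0.67 in distal Cdx2-sgRNA organoids, to 0.40, 0.06, 0.61 and 0.77. The median of the members became -0.16, -0.67, -0.20 and 0.12 in this order. With total counts 3, 3, 4 and 4 of the 10 members were called lower, where 8.94%, 7.36%, 10.3% and 10.8% of all genes were, and 0, 0, 1 and 1 higher, where 23.2%, 4.97%, 35.9% and 42.6% were. Klf3 and Klf4 stayed lower in all 4 cultures, Klf6 in the same 3, Klf10 in both distal cultures and Klf5 in proximal Cdx2-sgRNA organoids. Against the moved median, every one of the 20 calls made with TMM still lay lower. This follows from a shift that is nearly the same for all genes, so it is no check of these calls.

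Klf4, known for its place in differentiated cells, had the largest differences of the called members. Replicates 1 and 2 of proximal scramble-sgRNA organoids gave 458 and 332 CPM in WENR-minus and 66.5 and 61.0 CPM in WENR-plus medium. Proximal Cdx2-sgRNA organoids gave 320 and 346 CPM against 93.8 and 89.8 CPM. Every WENR-minus library thus stood above every WENR-plus library of its culture. Distal scramble-sgRNA organoids gave 1288 and 827 CPM against 131 and 65.2 CPM, and distal Cdx2-sgRNA organoids 1570 and 1509 CPM against 148 and 115 CPM. Again no libraries overlapped. The log2 fold change was -2.63 ± 0.32 (adjusted p = 0.00036) and -1.86 ± 0.31 (adjusted p = 0.00461) in proximal scramble-sgRNA and Cdx2-sgRNA organoids. In distal organoids it was -3.43 ± 0.33 (adjusted p = 4.3e-05) with scramble-sgRNA and -3.55 ± 0.33 (adjusted p = 1.39e-05) with Cdx2-sgRNA.

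Klf3, the CtBP-dependent repressor, followed the same order of media with smaller steps. Proximal scramble-sgRNA organoids held 294 and 311 CPM in WENR-minus and 143 and 146 CPM in WENR-plus medium. Proximal Cdx2-sgRNA organoids held 305 and 292 CPM against 135 and 121 CPM. Replicates lay close together and the media did not overlap. Distal scramble-sgRNA organoids held 428 and 347 CPM against 160 and 162 CPM, and distal Cdx2-sgRNA organoids 570 and 621 CPM against 172 and 153 CPM. The log2 fold change of Klf3 was -1.07 ± 0.14 in proximal scramble-sgRNA (adjusted p = 0.000445) and -1.22 ± 0.14 in proximal Cdx2-sgRNA organoids (adjusted p = 0.000897). In distal organoids it was -1.27 ± 0.14 with scramble-sgRNA (adjusted p = 6.62e-05) and -1.88 ± 0.14 with Cdx2-sgRNA (adjusted p = 4.69e-06).

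Klf6, a family member known as an inducer of the cell cycle inhibitor Cdkn1a, fell in 3 cultures. In proximal scramble-sgRNA organoids it was at 639 and 647 CPM in WENR-minus and 115 and 140 CPM in WENR-plus medium (log2 fold change -2.34 ± 0.42, adjusted p = 0.00223). In distal scramble-sgRNA organoids it was at 690 and 546 CPM against 129 and 169 CPM (log2 fold change -2.05 ± 0.42, adjusted p = 0.00239). In distal Cdx2-sgRNA organoids it was at 1020 and 1024 CPM against 153 and 176 CPM (log2 fold change -2.64 ± 0.42, adjusted p = 0.00039). These 3 pairs of groups were far apart. In proximal Cdx2-sgRNA organoids the libraries overlapped, at 416 and 239 CPM in WENR-minus and 270 and 90.7 CPM in WENR-plus medium, with replicate 1 above replicate 2 in both. The difference there was -0.86 ± 0.40 on the log2 scale (adjusted p = 0.186). Without replicate 1 of the WENR-plus group it was -1.85 (adjusted p = 0.00745), with a block for each culture -1.01 (adjusted p = 0.00859) and without the filter -0.86 (adjusted p = 0.00162).

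Klf5, known from dividing crypt cells, was also lower in WENR-plus medium, by less than Klf4. Proximal scramble-sgRNA organoids had 622 and 567 CPM in WENR-minus and 400 and 417 CPM in WENR-plus medium. Proximal Cdx2-sgRNA organoids had 369 and 448 CPM against 214 and 178 CPM. In distal organoids the values were 558 and 643 CPM against 461 and 431 CPM with scramble-sgRNA, and 719 and 738 CPM against 502 and 449 CPM with Cdx2-sgRNA. The media did not overlap in any culture. The log2 fold change was -0.54 ± 0.15 (adjusted p = 0.0188) and -1.06 ± 0.15 (adjusted p = 0.00235) in proximal scramble-sgRNA and Cdx2-sgRNA organoids, and -0.43 ± 0.15 (adjusted p = 0.0382) and -0.62 ± 0.15 (adjusted p = 0.00529) in the distal ones. In TPM, which is not scaled between libraries by TMM, the distal Klf5 means without and with WENR were 195 and 196 for scramble-sgRNA and 214 and 211 for Cdx2-sgRNA. Scaled by total counts, the distal differences were 0.076 (adjusted p = 0.708) with scramble-sgRNA and 0.062 (adjusted p = 0.756) with Cdx2-sgRNA, the reverse in sign, and the proximal ones -0.20 (adjusted p = 0.342) and -1.03 (adjusted p = 0.0027). The distal scramble-sgRNA call was also lost with at least 10 counts in every library (adjusted p = 0.0604), without the filter (0.126) and in a fit of only its own libraries (0.126). Both scramble-sgRNA calls were lost in 3 of the 4 fits that left out 1 library. In proximal organoids these were the fits without WENR-minus replicate 1 (adjusted p = 0.104), WENR-plus replicate 1 (0.0842) or WENR-plus replicate 2 (0.0687), and in distal organoids those without WENR-minus replicate 2 (0.195), WENR-plus replicate 1 (0.06) or WENR-plus replicate 2 (0.0984).

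Klf10, the early TGF-beta target, fell in 3 cultures. Proximal scramble-sgRNA organoids gave 76.1 and 55.3 CPM in WENR-minus and 38.1 and 32.4 CPM in WENR-plus medium, a log2 fold change of -0.90 ± 0.20 (adjusted p = 0.00673). Distal scramble-sgRNA organoids gave 95.7 and 92.6 CPM against 30.8 and 30.9 CPM (-1.61 ± 0.20 on the log2 scale, adjusted p = 0.000157). Distal Cdx2-sgRNA organoids gave 75.1 and 85.6 CPM against 23.7 and 36.1 CPM (-1.43 ± 0.20, adjusted p = 0.000165). No libraries overlapped in these cultures. In proximal Cdx2-sgRNA organoids the values were 69.8 and 75.5 CPM against 50.6 and 50.1 CPM, and the difference of -0.53 ± 0.20 did not pass (adjusted p = 0.101), but did with a block for each culture (-0.53, adjusted p = 0.0167). The proximal scramble-sgRNA call was lost without WENR-minus replicate 1 (log2 fold change -0.66, adjusted p = 0.0613) and without WENR-plus replicate 2 (-0.82, adjusted p = 0.0563), and with total counts it was -0.54 (adjusted p = 0.0559).

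The Sin3A-binding members Klf9 and Klf13 differed less between media. Klf9 was at 155 and 245 CPM in WENR-minus and 99.8 and 144 CPM in WENR-plus medium in distal scramble-sgRNA organoids, a log2 fold change of -0.72 ± 0.22 (adjusted p = 0.0235). This call was lost without WENR-minus replicate 2, the highest Klf9 library (-0.35, adjusted p = 0.25), and without WENR-plus replicate 1 (-0.52, adjusted p = 0.138). It was lost as well with total counts (-0.21, adjusted p = 0.5) and in a fit of only its own libraries (-0.74, adjusted p = 0.0793). In the other cultures Klf9 was at 102 and 98.4 CPM against 67.7 and 77.3 CPM (proximal scramble-sgRNA, adjusted p = 0.138), 88.6 and 87.1 CPM against 78.5 and 97.3 CPM (proximal Cdx2-sgRNA, adjusted p = 1) and 176 and 151 CPM against 114 and 119 CPM (distal Cdx2-sgRNA, adjusted p = 0.0936). With a block for each culture, which pairs the same-numbered libraries of both media, Klf9 passed in proximal scramble-sgRNA (-0.47, adjusted p = 0.0188) and distal Cdx2-sgRNA organoids (-0.48, adjusted p = 0.0118) as well. The distal Cdx2-sgRNA difference of Klf9 passed too in DESeq2 (adjusted p = 0.046), without the filter (0.0429) and in a fit of only its own libraries (0.0409), as did that of proximal scramble-sgRNA in its own libraries (0.0459). Klf13 passed in distal Cdx2-sgRNA organoids, at 75.2 and 81.5 CPM against 62.9 and 58.9 CPM (log2 fold change -0.36 ± 0.13, adjusted p = 0.0349). That call was lost without WENR-minus replicate 1 (adjusted p = 0.0593), WENR-minus replicate 2 (0.0863) or WENR-plus replicate 2 (0.108), without the filter (0.171) and in a fit of only its own libraries (0.0733). The sign was not stable to scaling: per total counts Klf13 stood at 52.6 and 53.4 CPM in WENR-minus and 68.6 and 63.3 CPM in WENR-plus medium there, a log2 fold change of 0.32 (adjusted p = 0.0764). In the distal scramble-sgRNA organoids Klf13 was at 59.0 and 61.9 CPM against 60.7 and 64.1 CPM, which overlap, and total counts called it higher in WENR-plus medium (0.55, adjusted p = 0.00694). The Klf13 difference in proximal Cdx2-sgRNA organoids was -0.42 ± 0.13 (adjusted p = 0.0541), and -0.41 (adjusted p = 0.0353) with the block for each culture. DESeq2 called Klf13 lower in both proximal cultures (adjusted p = 0.0425 with scramble-sgRNA and 0.0118 with Cdx2-sgRNA).

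The remaining members did not pass between media with TMM. Klf7, a member expressed in many tissues at low level, lay between 14.9 and 36.2 CPM in all 16 libraries, with log2 fold changes of -0.39 to 0.31 between media and adjusted p of 0.531 to 0.805. Total counts called Klf7 higher in WENR-plus medium in distal Cdx2-sgRNA organoids (0.98, adjusted p = 0.0441). Klf2, known from endothelium and quiescent lymphocytes, had 5 to 97 reads per library. In proximal Cdx2-sgRNA organoids it was at 3.71 and 5.13 CPM in WENR-minus and 1.28 and 0.317 CPM in WENR-plus medium, which do not overlap (log2 fold change -2.47 ± 0.77, adjusted p = 0.055). Without WENR-plus replicate 1 this difference was -3.77 (adjusted p = 0.037), with a block for each culture -2.59 (adjusted p = 0.0266), in DESeq2 -2.50 (adjusted p = 0.0153) and without the filter -2.48 (adjusted p = 0.00303).

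**Figure D3:**
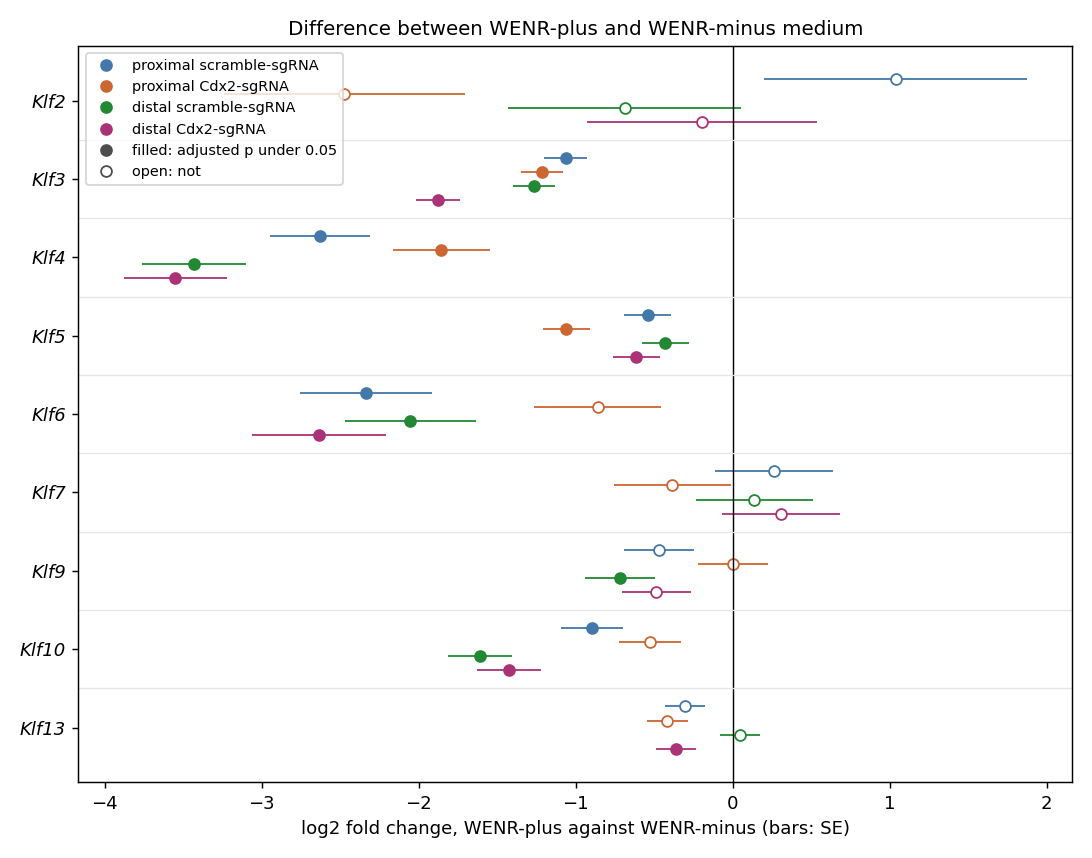
Log2 fold change between WENR-plus and WENR-minus medium for 9 members (points, with bars of 1 SE) in each of the 4 cultures, filled where the adjusted p is under 0.05; Klf15 is left out because 3 groups hold no read of it. Klf3, Klf4 and Klf5 lie left of 0 and are filled in all 4 cultures, and Klf4 reaches -3.55 in distal Cdx2-sgRNA organoids; with scaling by total counts the Klf5 points of both distal cultures move to 0.076 and 0.062 and Klf13 in distal Cdx2-sgRNA to 0.32, right of 0.

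Markers of other cell states moved with the medium beside the Klf members. Of the 7 markers of colon epithelium 7 were called lower in WENR-plus medium in proximal scramble-sgRNA, 3 in proximal Cdx2-sgRNA (Cdh1, Krt8 and Krt19) and 6 in each of the distal cultures, with median log2 fold changes of -1.55, -0.62, -1.85 and -1.97, and these calls held with total counts. The stem cell markers Lgr5 and Ascl2 were called higher in all 4 cultures and Ephb2 in both distal ones (medians of the 3 of 3.53, 4.19, 3.51 and 5.86 in the same order). Markers of differentiated epithelium were lower in part. Of the 4 (Krt20, Car1, Fabp2 and Muc2), 4 were called lower in proximal scramble-sgRNA, 2 in distal scramble-sgRNA and 3 in distal Cdx2-sgRNA organoids, and in proximal Cdx2-sgRNA organoids 1 was, Krt20. With total counts Muc2 in proximal scramble-sgRNA organoids was no longer called (-2.0, adjusted p = 0.0537). Their sum was 8000 to 11000 CPM in WENR-minus and 392 to 549 CPM in WENR-plus medium in proximal scramble-sgRNA organoids, 4560 to 7250 against 385 to 525 CPM in distal scramble-sgRNA organoids and 10200 to 11300 against 414 to 824 CPM in distal Cdx2-sgRNA organoids. In proximal Cdx2-sgRNA organoids the sum was 514 to 1590 against 131 to 235 CPM and was mostly Krt20, at 489 and 1570 CPM against 104 and 213 CPM. There Car1 was at 19.9 and 11.4 against 22.4 and 17 CPM, Muc2 at 4.16 and 2.64 against 3.89 and 4.55 CPM and Fabp2 at 0.891 and 0.952 against 0.812 and 0.74 CPM. All 4 proliferation markers were called higher in WENR-plus medium in 3 cultures and none in proximal Cdx2-sgRNA organoids (0 at an unadjusted p under 0.05 in edgeR), and there their sum was at 546 to 654 CPM in WENR-minus and 518 to 623 CPM in WENR-plus medium. In bulk RNA, fewer cells of a type and less RNA per cell cannot be told apart, and the part of these markers in the Klf values was not tested.

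The second comparison asks what Cdx2-sgRNA changed at a fixed region and medium. Klf5 and Klf13 fell in proximal organoids in both media, Klf2 rose in proximal organoids in WENR-minus medium, and Klf3 rose in distal organoids in WENR-minus medium. Of these 6 calls, scaling by total counts ended those of Klf5 in proximal WENR-minus and of Klf3 in distal WENR-minus organoids and turned no sign, while it moved the median of all genes by 0.15 and -0.16 in the proximal and -0.20 and -0.04 in the distal comparisons (WENR-minus, then WENR-plus). The share of counts in mitochondrial rRNA genes was 17.6 and 17.9% with scramble-sgRNA and 22.4 and 20.4% with Cdx2-sgRNA in proximal WENR-minus organoids, and 15.4 and 21.2% against 28.0 and 23.4% in proximal WENR-plus organoids. The guides did not overlap in this share in proximal organoids and did in distal ones (20.2 to 27.0%), and its part in the Klf values was not tested. In proximal organoids 3 of the 10 members passed in WENR-minus medium, where 30.9% of all tested genes were called, and 2 of the 10 in WENR-plus medium, where 24.8% were called. In distal organoids 1 of the 10 passed in WENR-minus medium (9.76% of genes called). None of the 10 passed in distal WENR-plus medium (0.262% of genes called). There edgeR gave 0 members and 973 of all tested genes at an unadjusted p under 0.05, and DESeq2 also called 0 members.

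Other markers moved with the guide as well. In proximal organoids Car1, Fabp2 and Muc2 were called lower with Cdx2-sgRNA in both media, and the median log2 fold change of the 4 markers of differentiated epithelium was -7.52 without and -3.18 with WENR. With WENR the remaining one of the 4, Krt20, was called higher (2.78, adjusted p = 0.00515). The proliferation marker Mki67 was called higher with Cdx2-sgRNA without WENR (1.19, adjusted p = 0.0417) and lower when WENR was present (-1.24, adjusted p = 0.0422), and no stem cell marker was called in either. In distal WENR-minus organoids Vil1 was called higher and Fabp2 and Ephb2 lower. The part of these markers in the Klf values was not tested.

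Klf5 was at 622 and 567 CPM with scramble-sgRNA and 369 and 448 CPM with Cdx2-sgRNA in proximal WENR-minus organoids (log2 fold change -0.54 ± 0.15, adjusted p = 0.0177). In WENR-plus medium the values were 400 and 417 CPM against 214 and 178 CPM (log2 fold change -1.06 ± 0.15, adjusted p = 0.000624). The guides did not overlap in either medium. In distal organoids the Klf5 difference was 0.28 ± 0.15 in WENR-minus medium (adjusted p = 0.264) and 0.09 ± 0.15 in WENR-plus medium (adjusted p = 0.981), on the log2 scale. The difference between these effects, proximal minus distal, was -0.82 ± 0.21 in WENR-minus medium (adjusted p = 0.022) and -1.15 ± 0.21 in WENR-plus medium (adjusted p = 0.0094). The proximal WENR-minus call was lost without replicate 1 of Cdx2-sgRNA (log2 fold change -0.38, adjusted p = 0.132) and without replicate 1 of scramble-sgRNA (-0.43, adjusted p = 0.127), with total counts (-0.38, adjusted p = 0.0782), without the filter (-0.52, adjusted p = 0.0843) and in a fit of only its own libraries (-0.50, adjusted p = 0.162), while the WENR-plus call was kept whichever library was left out (adjusted p 0.00202 to 0.00846).

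The difference between regions for Klf5 was less stable in WENR-minus medium. Its adjusted p there rose to 0.0515 and 0.0631 without replicates 1 and 2 of distal Cdx2-sgRNA, 0.0691 without replicate 1 of distal scramble-sgRNA, 0.0699 without replicate 1 of proximal Cdx2-sgRNA and 0.0875 without replicate 1 of proximal scramble-sgRNA. In WENR-plus medium it rose to 0.0565 without replicate 1 of distal Cdx2-sgRNA and to 0.0506 without replicate 2 of distal scramble-sgRNA. In WENR-minus medium it was also lost with total counts (-0.45, adjusted p = 0.161), without the filter (0.0619) and in a fit of only its own libraries (0.0767). The sign was negative in all these fits.

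Klf13, like Klf5, passed in proximal and not in distal organoids. In the proximal ones it was at 59.2 and 71.1 CPM with scramble-sgRNA and 43.9 and 37.6 CPM with Cdx2-sgRNA in WENR-minus medium (log2 fold change -0.68 ± 0.13, adjusted p = 0.00231). In WENR-plus medium it was at 52.6 and 53.1 CPM against 31.1 and 29.9 CPM (log2 fold change -0.79 ± 0.13, adjusted p = 0.00142). The guides were apart in both media. In distal organoids the difference was 0.37 ± 0.13 in WENR-minus medium (adjusted p = 0.0892, and 0.021 in DESeq2) and -0.04 ± 0.13 in WENR-plus medium (adjusted p = 0.996). The effect in proximal minus that in distal organoids was -1.05 ± 0.18 in WENR-minus medium (adjusted p = 0.00316) and -0.76 ± 0.18 in WENR-plus medium (adjusted p = 0.0329). With counts scaled for transcript length, the proximal differences were -0.51 (adjusted p = 0.0567) and -0.42 (adjusted p = 0.122) and the difference between regions in WENR-plus medium -0.49 (adjusted p = 0.337). In a fit of only its own libraries the proximal WENR-minus call was lost as well (-0.64, adjusted p = 0.0812). The WENR-plus difference between regions was also lost without the filter (adjusted p = 0.223), in a fit of only its own libraries (0.0717) and whichever of its 8 libraries was left out (adjusted p 0.0543 to 0.134), while that in WENR-minus medium was kept in all 8 such fits (adjusted p 0.00439 to 0.0146).

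Klf2 had few reads. In proximal WENR-minus organoids it had 7 and 5 reads with scramble-sgRNA (0.434 and 0.261 CPM) and 50 and 97 reads with Cdx2-sgRNA (3.71 and 5.13 CPM), a log2 fold change of 3.66 ± 0.83 (adjusted p = 0.00681). Both Cdx2-sgRNA libraries lay above all other 14 libraries, whose highest value was 3.05 CPM. Without replicate 2 of the scramble-sgRNA group the log2 fold change was 3.32 (adjusted p = 0.0539). The 4 endothelial markers summed to 0.496 to 0.521 CPM with scramble-sgRNA and 0.0742 to 0.264 CPM with Cdx2-sgRNA, with Pecam1 at 0.31 and 0.313 against 0 and 0.0529 CPM and Kdr at 0 and 0 against 0 and 0.212 CPM. The 4 immune markers summed to 1.93 to 3.59 CPM with scramble-sgRNA and 0.423 to 1.56 CPM with Cdx2-sgRNA, while Ptprc, a marker of leukocytes, went the other way, at 0 and 0 against 0.891 and 0.264 CPM, the former the highest Ptprc value of the 16 libraries. The part of these low counts in the Klf2 value was not tested. In distal WENR-minus organoids Klf2 was at 0.923 and 2.94 CPM with scramble-sgRNA and 3.05 and 1.34 CPM with Cdx2-sgRNA, which overlap. The difference between the regions' effects was 3.48 ± 1.1 on the log2 scale (adjusted p = 0.0503), and it passed in DESeq2 (3.53, adjusted p = 0.0183), with the RLE factors (3.51, adjusted p = 0.0481), with total counts (adjusted p = 0.0303), without the filter (3.49, adjusted p = 0.00255) and without replicate 1 of distal scramble-sgRNA (4.08, adjusted p = 0.0351).

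Klf3 differed by guide in distal WENR-minus organoids, where scramble-sgRNA gave 428 and 347 CPM and Cdx2-sgRNA 570 and 621 CPM (log2 fold change 0.62 ± 0.13, adjusted p = 0.0178). The guides did not overlap. In proximal WENR-minus organoids they did (294 and 311 CPM against 305 and 292 CPM). The effect in proximal minus that in distal organoids was -0.64 ± 0.19 (adjusted p = 0.0384). It was lost in 7 of the 8 fits that left out 1 library, the exception being that without replicate 1 of distal scramble-sgRNA (adjusted p 0.0235 to 0.141 over the 8), and was -0.29 (adjusted p = 0.356) with length-scaled counts. It was also lost with total counts (-0.28, adjusted p = 0.294), without the filter (adjusted p = 0.196) and in a fit of only its own libraries (0.133). The distal difference itself was lost without replicate 2 of Cdx2-sgRNA (0.56, adjusted p = 0.108), without replicate 2 of scramble-sgRNA (0.48, adjusted p = 0.141), with length-scaled counts (0.42, adjusted p = 0.0879), with total counts (0.41, adjusted p = 0.0574) and in a fit of only its own 4 libraries (0.60, adjusted p = 0.104).

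Klf4, Klf6, Klf7, Klf9 and Klf10 did not pass between guides in edgeR with the filter and all 16 libraries. Without the filter edgeR called Klf6 lower in proximal WENR-minus (-0.95, adjusted p = 0.000115) and higher in distal WENR-minus organoids (0.74, adjusted p = 0.0104) with Cdx2-sgRNA, and Klf7 higher in proximal WENR-minus organoids (0.68, adjusted p = 0.0333). In proximal WENR-plus organoids it called Klf4 (0.59, adjusted p = 0.0428) and Klf10 (0.58, adjusted p = 0.0499) higher, and a fit of only the 4 libraries compared also called Klf4 there (0.59, adjusted p = 0.0496). DESeq2 called Klf10 higher with Cdx2-sgRNA in proximal WENR-plus organoids (50.6 and 50.1 CPM against 38.1 and 32.4 CPM; log2 fold change 0.56, adjusted p = 0.0387). Klf6 in proximal WENR-minus organoids was at 639 and 647 CPM against 416 and 239 CPM, which do not overlap (log2 fold change -0.97 ± 0.40, adjusted p = 0.0886), and in distal WENR-minus organoids at 690 and 546 CPM against 1020 and 1024 CPM (0.73 ± 0.40, adjusted p = 0.281). The difference between these was -1.70 ± 0.57 (adjusted p = 0.0621), without replicate 1 of proximal Cdx2-sgRNA in WENR-minus medium -2.13 (adjusted p = 0.0396) and in DESeq2 -1.67 (adjusted p = 0.0179). It passed too with at least 10 counts in every library (adjusted p = 0.0485), without the filter (8.53e-07) and in a fit of only its own libraries (0.0313). In proximal WENR-plus organoids the Klf6 difference was 0.50 ± 0.40 (adjusted p = 0.395), and 1.08 (adjusted p = 0.0332) without Cdx2-sgRNA replicate 2. Klf4 differences ran from -0.25 ± 0.30 in proximal WENR-minus to 0.54 ± 0.30 in distal WENR-minus organoids, with adjusted p of 0.228 to 0.948. For the test of the regions' effects, 3 of the 10 members passed in WENR-minus medium, against 17.2% of all tested genes, and 2 of the 10 in WENR-plus medium, against 5.70%.

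Klf15, known for its part in amino acid and glucose metabolism, was near the limit of detection. It had 0 reads in 6 libraries, namely both WENR-minus groups of distal organoids and proximal scramble-sgRNA in WENR-minus medium, which allows up to 3 reads or 0.156 to 0.254 CPM there. Distal scramble-sgRNA organoids in WENR-plus medium had 1 and 1 reads and distal Cdx2-sgRNA organoids 5 and 4. Proximal organoids in WENR-plus medium had 1 and 10 reads with scramble-sgRNA and 31 and 53 reads (1.80 and 2.80 CPM) with Cdx2-sgRNA, and proximal Cdx2-sgRNA organoids in WENR-minus medium had 10 and 2. The 2 libraries with the most reads were those of proximal Cdx2-sgRNA in WENR-plus medium. No comparison of Klf15 passed in edgeR with the filter, TMM and all 16 libraries, and no fold change is given. Klf15 passed the filter through its reads in proximal organoids, most of them with Cdx2-sgRNA, the groups that the calls below place higher. Those calls that use the filter are therefore no separate support. For Cdx2-sgRNA against scramble-sgRNA in proximal WENR-minus organoids, DESeq2 called Klf15 higher (adjusted p = 0.04), as did edgeR without the filter (0.00713), with total counts (0.0451) and without Cdx2-sgRNA replicate 2 (0.0406). Without the filter, edgeR also called it higher with Cdx2-sgRNA in proximal WENR-plus organoids (0.0249), in WENR-plus medium in proximal scramble-sgRNA organoids (0.0193) and in proximal against distal Cdx2-sgRNA organoids (0.0152 and 0.0125 in the media without and with WENR). Leaving out WENR-plus replicate 1 in proximal scramble-sgRNA (0.0418) and Cdx2-sgRNA replicate 2 in the WENR-minus comparison of regions (0.0349) gave calls too, as did total counts in that comparison (0.0252) and a fit of only the libraries of the WENR-plus comparison of regions (0.0382).

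**Figure D4:**
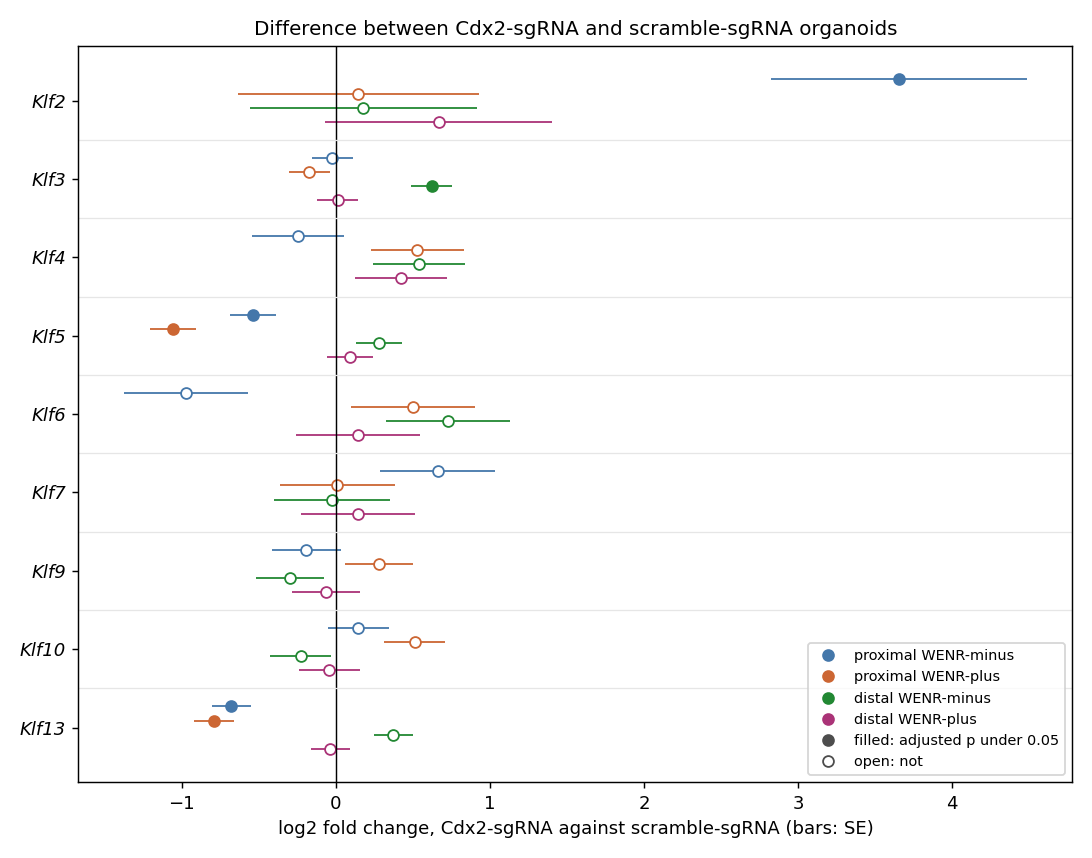
Log2 fold change between Cdx2-sgRNA and scramble-sgRNA for 9 members (points, with bars of 1 SE) in each region and medium, filled where the adjusted p is under 0.05; Klf15 is left out. Klf5 and Klf13 are filled and left of 0 in both proximal comparisons, and Klf2 in proximal WENR-minus organoids stands at 3.66; with scaling by total counts Klf5 in proximal WENR-minus stands at -0.38 and is not called.

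The third question is whether the response to medium itself differed between guides. None of the 10 members passed in proximal organoids, where 4.38% of all tested genes were called, or in distal organoids, where 0% were called. At an unadjusted p under 0.05 edgeR gave 3 members in proximal and 2 in distal organoids, beside 3277 and 1457 of the 15289 tested genes. DESeq2 called 1 member in each, Klf2 in proximal and Klf3 in distal organoids. The proximal values were -3.51 ± 1.13 for Klf2 (adjusted p = 0.101), 1.48 ± 0.57 for Klf6 (adjusted p = 0.162) and -0.52 ± 0.21 for Klf5 (adjusted p = 0.183), as differences of log2 fold changes. Without replicate 2 of proximal Cdx2-sgRNA in WENR-plus medium, Klf6 stood at 2.06 (adjusted p = 0.0414). With a block for each culture, Klf4 (0.76, adjusted p = 0.0419) and Klf6 (1.34, adjusted p = 0.0176) passed in proximal organoids. Without the filter Klf2 (-3.47, adjusted p = 0.0079) and Klf6 (1.52, adjusted p = 4.03e-05) passed there, and with total counts Klf5 did (-0.84, adjusted p = 0.0384), where the median of all genes moved by -0.31. In distal organoids, where 1457 genes had an unadjusted p under 0.05, Klf3 stood at -0.61 ± 0.19 (adjusted p = 0.348).

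The regions were compared at a fixed guide and medium, proximal against distal. Directions are those with TMM: total counts moved the median of all genes by 0.34 and 0.18 with scramble-sgRNA and by 0.70 and 0.05 with Cdx2-sgRNA (WENR-minus, then WENR-plus). With scramble-sgRNA in WENR-minus medium 2 of the 10 members were lower in proximal organoids (9.95% of all tested genes called). In WENR-plus medium none passed (2.12% called), and 1 member and 2165 of all tested genes had an unadjusted p under 0.05 in edgeR. There Klf9 was called lower by DESeq2 (-0.76, adjusted p = 0.0365) and by edgeR without the filter (-0.78, adjusted p = 0.00739). In the scramble-sgRNA WENR-minus comparison DESeq2 also called Klf2 (-2.54, adjusted p = 0.0315) and Klf3 (-0.41, adjusted p = 0.012) lower in proximal organoids, edgeR without the filter Klf2 (-2.48, adjusted p = 0.00722) and length-scaled counts Klf3 (-0.62, adjusted p = 0.0204, against -0.36, adjusted p = 0.118, as fitted here), and total counts called Klf13 higher (0.45, adjusted p = 0.0437). With Cdx2-sgRNA 6 of the 10 were lower in proximal organoids in WENR-minus medium (49.0% called). In WENR-plus medium 2 were lower and 1 higher (29.3% called). With total counts 2 were lower and 3 higher in the Cdx2-sgRNA WENR-minus comparison, where 13% of all genes were called lower and 47.8% higher. In the Cdx2-sgRNA WENR-minus comparison 5 of the 7 epithelial markers (Epcam, Cdh1, Krt8, Vil1 and Cdh17) were lower in proximal organoids and Krt18 higher, Car1 and Muc2 were lower, all 4 proliferation markers were higher (median log2 fold change 2.21) and Ephb2 and Ascl2 were higher. With total counts Cdh1 (-0.088, adjusted p = 0.622) and Krt8 (-0.15, adjusted p = 0.554) were not called there. In the Cdx2-sgRNA WENR-plus comparison Epcam, Cdh1, Vil1, Cdh17, Car1, Muc2 and Mki67 were lower and Krt20 higher, and with scramble-sgRNA Krt18 alone of the epithelial, stem cell and proliferation markers was called, higher in WENR-minus medium. The part of these markers in the Klf values was not tested.

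Between the scramble-sgRNA groups in WENR-minus medium Klf4 was lower in the proximal one, at 458 and 332 CPM against 1288 and 827 CPM (log2 fold change -1.42 ± 0.30, adjusted p = 0.0146). The difference was -1.07 (adjusted p = 0.102) without distal replicate 1 and -1.21 (adjusted p = 0.126) without proximal replicate 2. With Cdx2-sgRNA it was 320 and 346 CPM against 1570 and 1509 CPM (-2.21 ± 0.31, adjusted p = 0.000196). In WENR-plus medium the log2 fold change of Klf4 was -0.62 ± 0.30 with scramble-sgRNA (adjusted p = 0.392) and -0.52 ± 0.30 with Cdx2-sgRNA (adjusted p = 0.215).

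Klf9 was also lower in proximal organoids in WENR-minus medium. With scramble-sgRNA it was at 102 and 98.4 CPM against 155 and 245 CPM (log2 fold change -1.0 ± 0.22, adjusted p = 0.0177), and with Cdx2-sgRNA at 88.6 and 87.1 CPM against 176 and 151 CPM (-0.89 ± 0.22, adjusted p = 0.00664). The regions did not overlap with either guide. The scramble-sgRNA call was lost without distal replicate 2 (-0.63, adjusted p = 0.148), proximal replicate 1 (-1.07, adjusted p = 0.0605) or proximal replicate 2 (-0.97, adjusted p = 0.127), and in a fit of only its own libraries (adjusted p = 0.065). With total counts neither Klf9 call held (-0.67, adjusted p = 0.0762, and -0.19, adjusted p = 0.514).

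With Cdx2-sgRNA, Klf5 and Klf13 were lower in proximal organoids in both media. Klf5 stood at -0.84 ± 0.15 in WENR-minus (adjusted p = 0.000893) and -1.28 ± 0.15 in WENR-plus medium (adjusted p = 0.000178), and Klf13 at -0.94 ± 0.13 (adjusted p = 0.000158) and -1.0 ± 0.13 (adjusted p = 0.000314), as log2 fold changes. In WENR-minus medium total counts gave -0.13 for Klf5 (adjusted p = 0.486) and -0.24 for Klf13 (adjusted p = 0.157), and both WENR-plus calls held. With scramble-sgRNA the same differences, with TMM, lay between -0.24 and 0.11, with adjusted p of 0.446 to 0.969. Klf3 (-1.0 ± 0.14, adjusted p = 0.000146) and Klf6 (-1.64 ± 0.41, adjusted p = 0.00655) were lower in proximal Cdx2-sgRNA organoids in WENR-minus medium, and the Klf6 call was lost without proximal replicate 2 (-1.30, adjusted p = 0.0603). With total counts Klf3 stood at -0.29 (adjusted p = 0.0684) and Klf6 at -0.94 (adjusted p = 0.0483), and Klf7 (1.09, adjusted p = 0.0254) and Klf10 (0.57, adjusted p = 0.0268) were called higher. Klf10 was higher in proximal Cdx2-sgRNA organoids in WENR-plus medium, at 50.6 and 50.1 CPM against 23.7 and 36.1 CPM (0.75 ± 0.20, adjusted p = 0.0166). That call was lost without distal replicate 1 (0.54, adjusted p = 0.119), proximal replicate 1 (0.75, adjusted p = 0.0509) or proximal replicate 2 (0.76, adjusted p = 0.0611), and in a fit of only its own libraries (0.79, adjusted p = 0.081).

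The order of the 8 groups differed between members. Klf4 was highest in distal Cdx2-sgRNA WENR-minus (1539 ± 43.1 CPM, SD, n = 2), then distal scramble-sgRNA WENR-minus (1057 ± 326 CPM) and then the proximal WENR-minus groups (395 ± 88.9 and 333 ± 18.4 CPM), which overlap. Its WENR-plus groups came last, from 131 ± 23.8 CPM in distal Cdx2-sgRNA to 63.7 ± 3.90 CPM in proximal scramble-sgRNA organoids. Klf5 was lowest in proximal Cdx2-sgRNA WENR-plus at 196 ± 25.7 CPM and highest in distal Cdx2-sgRNA WENR-minus at 729 ± 13.3 CPM. The Klf5 means of proximal scramble-sgRNA WENR-plus and proximal Cdx2-sgRNA WENR-minus were both 408 CPM. Klf13 was lowest in the proximal Cdx2-sgRNA groups, at 30.5 ± 0.896 CPM in WENR-plus and 40.7 ± 4.43 CPM in WENR-minus medium, and neither overlapped with any other group. Per total counts the order changed: Klf5 was highest in proximal scramble-sgRNA WENR-minus organoids (599 and 578 CPM), and Klf13 of proximal Cdx2-sgRNA WENR-minus organoids (47.5 and 42.4 CPM) overlapped with distal scramble-sgRNA WENR-minus organoids (45.1 and 49.7 CPM).

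Over the 16 libraries, Klf3 and Klf4 gave Pearson's r = 0.966 on log2 CPM, Klf3 and Klf6 0.929, Klf4 and Klf6 0.909 and Klf5 and Klf13 0.895. Klf5 and Klf4 gave 0.688. These describe 16 points that share groups, media and mice. Among 9609 other protein-coding genes, the 2 most like Klf4 were Zfyve1 (0.986) and Cideb (0.985), those most like Klf3 were Cttn (0.985) and Mxd1 (0.983), and those most like Klf6 were Coq10b (0.977) and Cldn4 (0.974). Csnk1g2 (0.982) and Cc2d1a (0.961) were most like Klf5, Papola (0.954) and Usp15 (0.953) most like Klf13, and Pdlim2 (0.970) and Prex1 (0.955) most like Klf10. For Klf9 they were Jak2 (0.929) and Kdm2a (0.926), for Klf2 Sept9 (0.878) and Tab1 (0.858), for Klf7 Krt23 (0.783) and Tab1 (0.776), and for Klf15 Zbtb38 (0.919) and Sfi1 (0.918). The Klf15 values rest on few reads, with 0 in 6 libraries, as does its r of -0.903 with Klf5 and -0.822 with Klf13.

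Of 16 other Klf and Sp genes, 9 were tested. In WENR-plus medium Klf11, like Klf10 an early TGF-beta target, rose in distal scramble-sgRNA organoids (3.85 and 5.23 CPM against 8.81 and 9.25 CPM; log2 fold change 0.99 ± 0.25, adjusted p = 0.00787) and in distal Cdx2-sgRNA organoids (0.83 ± 0.25, adjusted p = 0.0167). Klf10 fell in the same cultures. Sp5, a target of Wnt signalling, was called higher in WENR-plus medium in both proximal cultures. Sp3 was called lower in WENR-plus medium in 3 cultures, and with total counts in 1 of them, distal Cdx2-sgRNA (-0.40, adjusted p = 0.0205). The list's median log2 fold change over the 4 medium comparisons ran from -0.44 to 0.11, beside 0.03 to 0.11 for all tested genes. Of 15 cofactors and regulators of Klf proteins 14 were tested. Between media, 2 were called higher in WENR-plus medium in proximal scramble-sgRNA, 0 in proximal Cdx2-sgRNA, 2 in distal scramble-sgRNA and 2 in distal Cdx2-sgRNA organoids. In this order 3, 5, 4 and 6 were called lower, where 29.4%, 13.5%, 40.4% and 47.0% of all genes were called. Hdac2 was higher in each culture but proximal Cdx2-sgRNA, Sin3a in both with scramble-sgRNA and Ctbp1 in distal Cdx2-sgRNA organoids. Kat2b, an acetyltransferase, and Mef2d were lower in all 4 cultures. The call of Kat2b in distal scramble-sgRNA organoids did not hold with total counts (-0.29, adjusted p = 0.115). In proximal organoids, with Cdx2-sgRNA, 1 was called higher and 3 lower in WENR-minus medium (30.9% of all genes called) and 2 higher and 5 lower in WENR-plus medium (24.8% called). Mef2a was higher and Ctbp1, Hdac1 and Wwp1 lower in both media, Hdac3 was higher in WENR-plus medium, and Sin3a and Crebbp were lower there. With total counts, Ctbp1 in WENR-minus (-0.34, adjusted p = 0.147) and Hdac3 in WENR-plus medium (0.42, adjusted p = 0.0564) were not called. In distal WENR-minus organoids Ep300 and Mef2a were called higher with Cdx2-sgRNA and the Klf5 ligase Wwp1 lower (9.76% of all genes called).

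The list of genes described as Klf4, Klf5 or Klf6 targets held 10 genes, all tested. In WENR-plus medium 6 rose and 4 fell in each distal culture, where 40.4% (scramble-sgRNA) and 47.0% (Cdx2-sgRNA) of all tested genes were called. Those that rose were Ccnd1, Ccne1, Ccnb1, Cdk1, Odc1 and Myc, which promote division, and those that fell were the cell cycle inhibitors Cdkn1a, Cdkn1b and Cdkn1c and Alpi, an intestinal alkaline phosphatase. In proximal scramble-sgRNA organoids 5 rose and 3 fell (29.4% of all genes called). In proximal Cdx2-sgRNA organoids (13.5% called) edgeR called 0 and DESeq2 1. There 2 of the list and 4387 of all tested genes had an unadjusted p under 0.05 in edgeR. Cdkn1a was at 98.1 and 88.7 CPM in WENR-minus and 25.2 and 21.6 CPM in WENR-plus medium in proximal scramble-sgRNA organoids (log2 fold change -2.0 ± 0.21, adjusted p = 0.000212). In proximal Cdx2-sgRNA organoids it was at 48.3 and 49.0 CPM against 37.5 and 23.2 CPM (-0.68 ± 0.21, adjusted p = 0.0514). With Cdx2-sgRNA in proximal WENR-minus organoids, Ccnd1 was called higher and Cdkn1a, Cdkn1c, Alpi and Odc1 lower (30.9% of all genes called). Alpi was there at 99.3 and 47.0 CPM with scramble-sgRNA and at 0.0742 and 0.212 CPM with Cdx2-sgRNA. Klf4 overlapped between guides in these libraries, and its part in the Alpi values was not tested.

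Of 7 genes induced by glucocorticoids, which are known to act on Klf9, Klf13 and Klf15, 6 were tested. Tsc22d3, Per1 and Sgk1 were higher with Cdx2-sgRNA in proximal organoids in both media, with log2 fold changes of 1.04 to 1.59, while Fkbp5 was lower, where 30.9% and 24.8% of all genes were called. Nr3c1, which encodes the glucocorticoid receptor, was lower with Cdx2-sgRNA in WENR-minus medium (-0.96 ± 0.19, adjusted p = 0.00291) and higher in WENR-plus medium (0.73 ± 0.19, adjusted p = 0.0168). Genes of the TGF-beta response were also tested. Smad7, Skil and Smad6 were higher with Cdx2-sgRNA in proximal organoids in both media, and Smad7 stood at 1.54 ± 0.22 in WENR-minus (adjusted p = 0.000364) and 1.86 ± 0.23 in WENR-plus medium (adjusted p = 0.00023), as log2 fold changes. Klf10 stood at 0.15 ± 0.20 and 0.51 ± 0.20 in those comparisons (adjusted p = 0.612 and 0.0818 in edgeR), and DESeq2 called it in WENR-plus medium (0.56, adjusted p = 0.0387).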

How the data were processed

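RNA of 16 libraries was read with a SMARTer stranded total RNA kit. The deposited values are estimated counts per transcript (expected counts) that the authors made with Salmon 1.1.0 on GENCODE transcripts, one table per library, not scaled between libraries. TPM and effective lengths from the authors' Salmon run stand beside the deposited counts and served for levels between genes and for length-scaled counts. Per the labels the submitters also name DESeq2 1.32. Each table holds 140748 transcripts, of which 139864 matched the GENCODE vM21 annotation of GRCm38 by identifier and 884 (0.257 to 0.509% of a library's counts) were left out. Counts were summed per gene and rounded.

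Counts were analysed with edgeR 4.0.16 in R 4.3.3: filterByExpr (15289 of 54123 genes kept), TMM scaling, 1 coefficient per group over all 16 libraries (8 residual degrees of freedom, common dispersion 0.0809), glmQLFit and glmQLFTest, two-sided, with Benjamini-Hochberg adjustment within each of 16 contrasts (12 between groups, 4 of differences). Genes with an adjusted p under 0.05 were called. The SE was taken from the log2 fold change and the F statistic (their ratio, with the root of F). CPM are TMM-scaled. No fold change is printed for Klf15. Counting limits cover counting error only.

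Replicate numbers are those of the labels, and whether a number is the same mouse in every region and guide is not stated. Deviations of same-numbered libraries correlated at -0.06 to 0.59 (median 0.07) over 28 pairs of groups and at 0.28 to 0.59 (median 0.41) between the media of the 4 cultures. Alternatives were the RLE factors, 2 other filters, DESeq2 1.42.0, length-scaled counts, a fold threshold, smaller fits, replicate blocks, leaving out each library and, chosen after seeing the data, scaling by total counts. The procedure was tested on simulated data. The genes named are the 10 members, Cdx2, genes of the lists and the 2 protein-coding genes most correlated with each member (mean of at least 5 CPM). The members and lists were chosen with earlier results of these data known. A comparison of the members' proteins was planned and not run, since no protein sequences were at hand. Figures were drawn with matplotlib 3.10.9.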

Additional observations from a re-analysis of the deposited data

Results flagged for a closer look

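The effect of Cdx2-sgRNA differed between proximal and distal organoids for 3 members, by edgeR's quasi-likelihood test of the difference itself. In WENR-minus medium the effect in proximal minus that in distal organoids was -0.64 ± 0.19 for Klf3 (adjusted p = 0.0384), -0.82 ± 0.21 for Klf5 (adjusted p = 0.022) and -1.05 ± 0.18 for Klf13 (adjusted p = 0.00316), as differences of log2 fold changes. With WENR-plus it was -1.15 ± 0.21 for Klf5 (adjusted p = 0.0094) and -0.76 ± 0.18 for Klf13 (adjusted p = 0.0329). Of all tested genes, this test called 17.2% without and 5.70% with WENR. Over the 8 fits that left out 1 library, the WENR-minus call was lost in 7 for Klf3, 5 for Klf5 and 0 for Klf13, and the WENR-plus call in 2 for Klf5 and 8 for Klf13. Length-scaled counts ended the calls of Klf3 (-0.29, adjusted p = 0.356) and of Klf13 in WENR-plus medium (-0.49, adjusted p = 0.337), and total counts those of Klf3 (-0.28, adjusted p = 0.294) and of Klf5 in WENR-minus medium (-0.45, adjusted p = 0.161). For Klf3 in WENR-minus medium the effects were -0.02 in proximal and 0.62 in distal organoids, for Klf5 -0.54 and 0.28 and for Klf13 -0.68 and 0.37. In WENR-plus medium they were -1.06 and 0.09 for Klf5 and -0.79 and -0.04 for Klf13. Of 7 epithelial markers the same test called 4 lower in WENR-minus medium (Epcam, Krt8, Vil1 and Cdh17) and 2 lower in WENR-plus medium (Epcam and Cdh17), and none higher, Krt8 not being called with total counts (-0.74, adjusted p = 0.105). Their part in the Klf values was not tested.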

How the results depend on the processing

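Of 42 calls of single members, 3 reversed in sign in 1 fit, that with total-count scaling: Klf5 between media in distal scramble-sgRNA (0.076) and distal Cdx2-sgRNA (0.062), and Klf13 between media in distal Cdx2-sgRNA (0.32). That scaling lost 12 more, 26 were kept whichever library was left out and 16 were lost in at least 1 such fit. DESeq2, the RLE factors and the replicate block (by replicate number) lost 0 of the 42, so the replicate block changed no count of called members. The block per culture, fitted for the media, lost 0 of 20 and added the calls of Klf2, Klf4, Klf6, Klf9, Klf10 and Klf13 given with those genes. Length-scaled counts lost 5, no filter 6, at least 10 counts in every library 1 of the 41 it could test, and fits of only the libraries compared 14. The causes were not tested.

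Counts of called members changed by more than 1.5 times as follows. DESeq2 called 2 in place of 1 for the guide in distal WENR-minus, 5 in place of 3 for the difference of guide effects in WENR-minus and for the medium in proximal Cdx2-sgRNA, 4 in place of 2 for the regions with scramble-sgRNA in WENR-minus, and 1 in place of 0 for the regions with scramble-sgRNA in WENR-plus and for both differences of medium effects. With no filter, the counts were 2 for the guide in distal WENR-minus, 5 in each proximal guide comparison, 5 for the medium in proximal Cdx2-sgRNA, 1 for the difference of guide effects in WENR-plus, 2 for the proximal difference of medium effects and 1 for the regions with scramble-sgRNA in WENR-plus. Length-scaled counts gave 0 for the guide in distal WENR-minus and 1 each for the guide in proximal WENR-plus and the difference of guide effects in WENR-plus. Fits of only the libraries compared gave 0 for the guide in distal WENR-minus and the medium in proximal Cdx2-sgRNA, and 1 for the guide in proximal WENR-minus, the difference of guide effects in WENR-plus and the regions with scramble-sgRNA in WENR-minus. An absolute log2 fold change over 1 gave 0 for the guide in distal WENR-minus, 1 each for the 2 proximal guide comparisons, both differences of guide effects and the regions with Cdx2-sgRNA in WENR-plus and with scramble-sgRNA in WENR-minus, 2 for the regions with Cdx2-sgRNA in WENR-minus and 3 for the medium in proximal scramble-sgRNA. A replicate block per culture gave 7 for the medium in proximal Cdx2-sgRNA and 2 for the proximal difference of medium effects.

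Total-count scaling gave 0 for the guide in distal WENR-minus, 3 for the medium in proximal scramble-sgRNA and 1 for the proximal difference of medium effects.

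Leaving out 1 library gave 3 to 5 calls for the medium in proximal scramble-sgRNA and in proximal Cdx2-sgRNA, 0 to 1 for the guide in distal WENR-minus, 1 to 3 and 0 to 1 for the difference of guide effects in WENR-minus and WENR-plus, 0 to 1 for the regions with scramble-sgRNA in WENR-minus and 0 to 1 for the proximal difference of medium effects.

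With 2 libraries a group, the spread is shared over all groups, and a group left with 1 library is assumed to vary like the others. RLE factors and length-scaled counts moved the median of all genes by at most 0.07 (log2), and total counts by the amounts given with the comparisons. Counts of Klf2 (5 to 97 reads) and Klf15 (0 to 53 reads) limit what can be said of them.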
